A study of Mus musculus with 40 samples.

Results

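The Schlafen genes are a mammalian family that in mice lies as a cluster on chromosome 11, and 6 of them were followed here after bacterial lipopolysaccharide (LPS) in macrophages grown from bone marrow (BMDMs). The members were the rows of the deposited expression table with the symbols Slfn1, Slfn2, Slfn4, Slfn5, Slfn8 and Slfn9, which is 6 of 27179 genes and 6 of the 11 rows whose symbol begins with Slfn. The 6 were taken by name, and the choice was made with earlier results of these data known. The study compared WT macrophages with macrophages of full Cpeb4 knockout mice, called Cpeb4-/- here after the study; Cpeb4 encodes a protein that binds cytoplasmic polyadenylation elements (CPEs) in the 3′ ends of mRNAs. BMDMs came from the femurs of 4 WT and 4 Cpeb4-/- male mice of mixed C57BL/6J and 129 background, and were grown with L-cell conditioned medium as the source of M-CSF. Cells of every mouse were left untreated or given 10 ng/ml LPS for 1, 3, 6 or 9 hr, so that 40 poly(A) RNA-seq libraries form 10 groups of 4. Each of 2 sequencing batches held 2 mice of each genotype, and no cage held both genotypes, so cage and genotype cannot be told apart.

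Schlafen proteins share an N-terminal Schlafen box with a putative RNA nuclease core, and the long members (Slfn5, Slfn8 and Slfn9) carry in addition a helicase-like C-terminal part that the short members (Slfn1 and Slfn2) and Slfn4 lack. Several family members are induced by type I interferon, which macrophages make after LPS engages TLR4. The secreted interferon acts through its receptor, the kinases Jak1 and Tyk2 and transcription factors such as Stat2 and Irf9, which act at interferon-stimulated response elements (ISREs) in target promoters. Slfn2 is best known for keeping T cells and monocytes quiescent and for guarding tRNAs against cleavage.

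The expression values were regularized log (rlog) values on a log2 scale, so that a difference of 1 is a doubling, and differences are shrunken where counts are low. The macrophage identity of the cultures was checked on 8 markers (Csf1r, Adgre1, Itgam, Cd68, Cd14, Fcgr1, Mertk and Lyz2), all 8 of which were expressed, with mean rlog values from 9.66 to 18.24. Markers of T, B and NK cells were at a median rlog of 1.04, 0.72 and -0.50, and those of neutrophils, dendritic cells, fibroblasts and erythroid or megakaryocyte cells at 2.20, 2.92, 1.48 and 1.45. Some of these markers passed the filter, 2 of 7 for T cells (Cd4 at 6.47 and Lck at 6.45, with Cd3e, Cd3d and Cd3g at 0.30 or less), 4 of 9 for neutrophils (up to 6.34), 3 of 5 for dendritic cells (up to 6.04) and 3 of 6 for erythroid or megakaryocyte cells (Pf4 at 12.35). Their part in the results was not tested. Genotypes are those of the labels. The Cpeb4 row sums reads over all exons and so would also count any RNA from a disrupted allele, which was not tested. It was 1.27 ± 0.19 (SE) lower in Cpeb4-/- than in WT at 6 hr (limma adjusted p = 0.00114). Its groups overlapped at the other 4 times, with means of 7.48 in Cpeb4-/- and 7.71 in WT in untreated cells. The deleted exons are not given in the sources used here, so this row does not check the labels at those times.

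The cluster spans chr11:82942341-83286726 (mm10), 344.39 kb, and lies 51.01 Mb from Cpeb4 on the same chromosome. In chromosome order its rows are Slfn5os, Slfn5, Slfn9, Slfn8, Slfn10-ps, Slfn2, Slfn1, Slfn4, Slfn3 and Slfn14. The remaining row with such a symbol, the Schlafen-like gene Slfnl1, lies outside the cluster. Promoters of the members, taken from RefSeq (GRCm38.p6) as 250 bases before to 50 bases after a start site, were available for all 6. They were searched on both strands for the ISRE core, GAAA and again GAAA with any 2 bases between them, and for the interferon gamma-activated site TTCNNNGAA. Of 6 members, 3 held the ISRE core in at least 1 window, all of them long members. Of the 32851 single promoters of this length 3.44% held it, which is a share of windows and not of genes. The windows of Slfn8 and Slfn9 resemble each other around the core, so their matches are not independent. None of the 6 held TTCNNNGAA, against 8.30% of all promoters. A promoter with the core is shown for each of these 3 genes, which follow each other on the chromosome. Slfn8 has a second start in RefSeq, whose window is not shown. The core is in capitals, and it is on the reverse strand in Slfn8 and Slfn9.
Slfn5, chr11:82951852-82952151, plus strand: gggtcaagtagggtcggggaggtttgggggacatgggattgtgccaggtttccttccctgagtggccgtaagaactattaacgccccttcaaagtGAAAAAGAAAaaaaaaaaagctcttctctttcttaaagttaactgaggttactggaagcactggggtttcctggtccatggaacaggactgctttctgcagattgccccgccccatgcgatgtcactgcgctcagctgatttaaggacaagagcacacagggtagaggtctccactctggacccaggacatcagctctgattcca
Slfn9, chr11:82991781-82992080, minus strand: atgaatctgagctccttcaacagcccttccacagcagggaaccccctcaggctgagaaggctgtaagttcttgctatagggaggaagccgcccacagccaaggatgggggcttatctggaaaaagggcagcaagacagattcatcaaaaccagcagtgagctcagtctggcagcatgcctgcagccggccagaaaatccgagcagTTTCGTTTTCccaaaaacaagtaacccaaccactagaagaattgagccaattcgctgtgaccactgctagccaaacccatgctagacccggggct
Slfn8, chr11:83020761-83021060, minus strand: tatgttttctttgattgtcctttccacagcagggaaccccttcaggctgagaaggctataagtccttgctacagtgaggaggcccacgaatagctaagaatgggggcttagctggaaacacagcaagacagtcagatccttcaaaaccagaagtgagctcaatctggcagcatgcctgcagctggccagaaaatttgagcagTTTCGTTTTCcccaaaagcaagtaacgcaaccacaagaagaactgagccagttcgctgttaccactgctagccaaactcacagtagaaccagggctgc
The core begins at position -155 from the start in Slfn5, inside a run of A, and the start used there lies within the span of the Slfn5 gene record. It begins at -45 in Slfn9 and at -48 in Slfn8, or at -136 from the second Slfn8 start. The matched letters were GAAAAAGAAA in Slfn5 and GAAAACGAAA in both Slfn8 and Slfn9. A match describes these letters and is no evidence of binding, and its absence in Slfn1, Slfn2 and Slfn4 covers these 300 bases only.

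**Figure D1:**
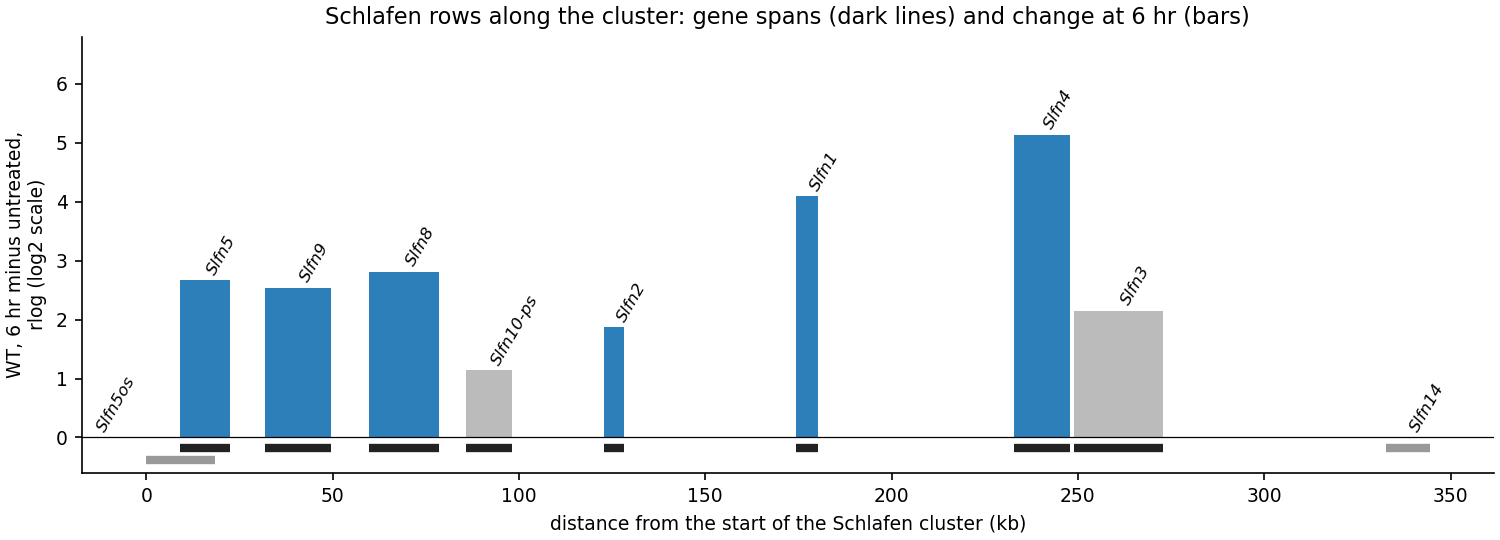
The Schlafen rows along the cluster, by distance from its start (x axis, kb), with gene spans as dark lines and the change from untreated to 6 hr of LPS in WT as bars (y axis, rlog, log2 scale). Blue bars are the 6 members and grey bars Slfn10-ps and Slfn3, and Slfn5os and Slfn14 were below the filter and have no bar; the highest bars, 5.14 for Slfn4 and 4.09 for Slfn1, stand beside each other in the cluster.

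The members differ in length, so their levels were compared with each other only after log2 of the exon length in kb had been subtracted. On that scale untreated WT cells held 13.51 ± 0.12 (SD, n = 4) for Slfn2, 10.59 ± 0.08 for Slfn5 and 9.29 ± 0.05 for Slfn8. Slfn1 stood at 6.60 ± 0.05, Slfn4 at 5.74 ± 0.08 and Slfn9 at 5.64 ± 0.37, and Slfn4 and Slfn9 did not differ beyond their spread. At 6 hr of LPS the order was Slfn2 (15.38 ± 0.05), Slfn5 (13.26 ± 0.09), Slfn8 (12.10 ± 0.11), Slfn4 (10.88 ± 0.28), Slfn1 (10.69 ± 0.16) and Slfn9 (8.19 ± 0.25), and there Slfn4 and Slfn1 did not differ beyond their spread. Slfn2 was thus the most abundant member per length in both states, and Slfn4 rose from below Slfn1 to its level. Reads were 50 bases long by the alignment statistics of the study, and part of the sequence of these genes is shared: 15.4% of the 50-base windows of the longest Slfn8 transcript, 11.9% for Slfn9, 11.6% for Slfn4, 4.27% for Slfn2 and 0.606% for Slfn1 also occur in transcripts of other genes. Slfn8 and Slfn9 share windows mainly with each other and with Slfn10-ps, and Slfn4 mainly with Slfn3, so the values of these genes are uncertain to that degree. For Slfn5 the share was 11.8%, mostly with its antisense partner Slfn5os, and because the library kit does not mark the strand, reads of that pair cannot be told apart.

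The question of the time course was when each member moves after LPS and how far it comes back. All 6 members were higher than in untreated cells at 3, 6 and 9 hr in both genotypes, with limma and a threshold of 0.05 on the p adjusted over every gene tested. Of all genes tested, 32.5% in WT against 34.4% in Cpeb4-/- were called higher after 3 hr, 38.7% against 39.0% after 6 hr, and 35.9% against 36.4% after 9 hr. At 1 hr 3 of the 6, Slfn2, Slfn5 and Slfn8, were called higher in each genotype, against 17.3% of all genes in WT and 23.8% in Cpeb4-/-. At that time 2264 genes were higher and 2179 lower in WT, which became 1878 and 3091 under quantile normalization, and in Cpeb4-/- 3121 and 2627 became 2441 and 3983. Comparisons with untreated cells share those untreated libraries. The members differed in when they moved. In WT, Slfn2 made most of its rise by 1 hr, Slfn1, Slfn5, Slfn8 and Slfn9 made most of theirs between 1 and 3 hr, and Slfn4 between 3 and 6 hr.

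**Figure D2:**
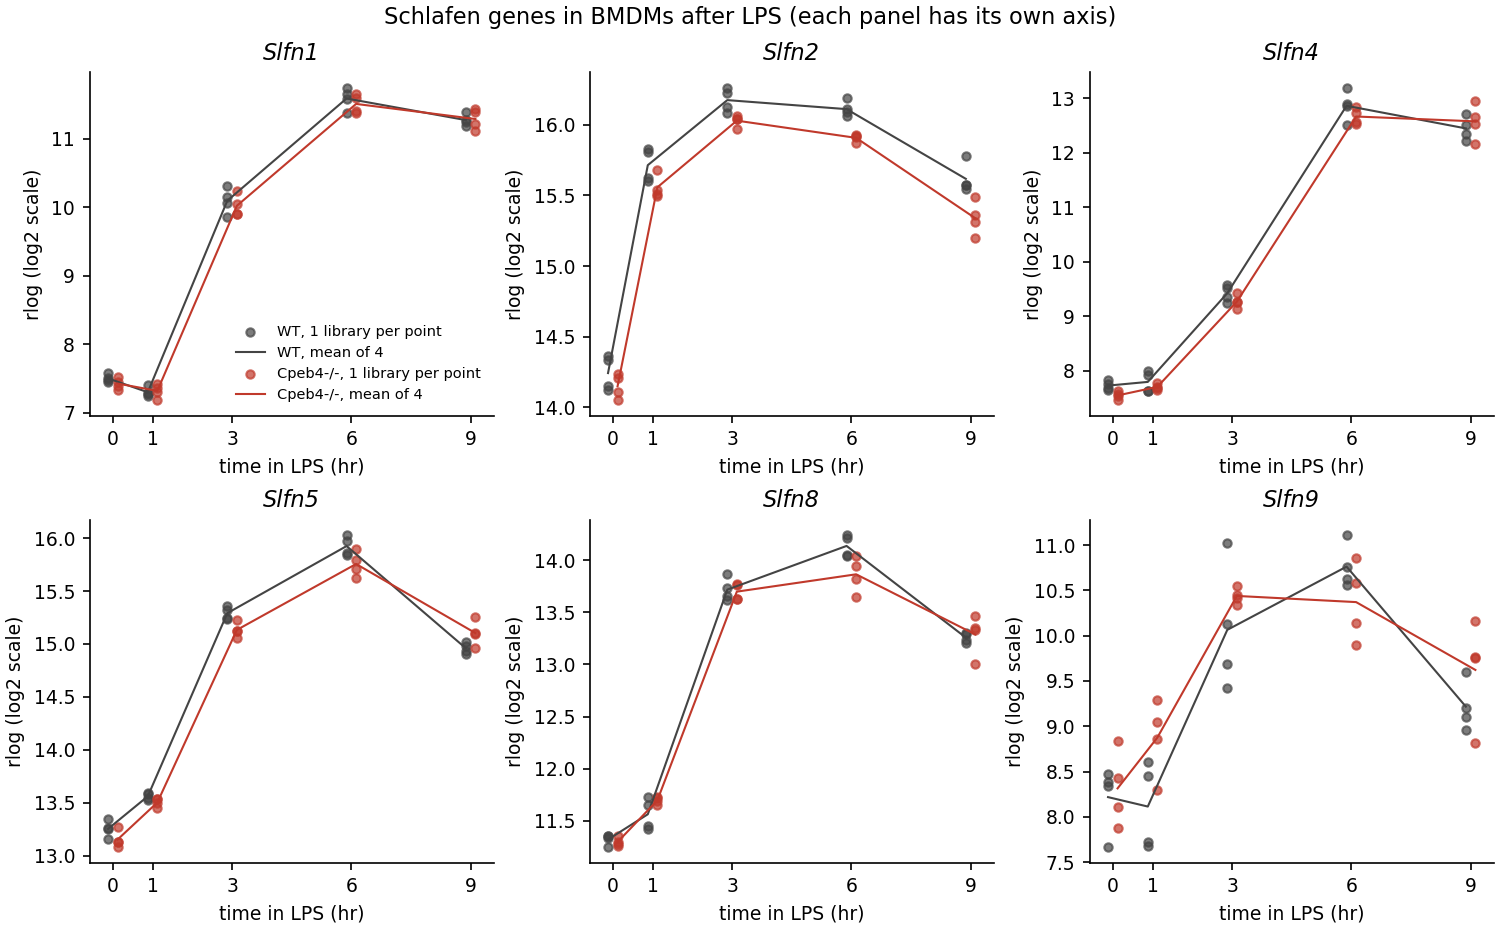
Expression of the 6 members (y axis, rlog, log2 scale, an axis for each gene) against time in LPS (x axis, hr), with 1 point per library and lines through the means of 4 WT (grey) and 4 Cpeb4-/- (red) libraries. Slfn2 has made most of its rise by 1 hr, at 15.71 in WT, while Slfn4 is still at 7.79 then and reaches 12.87 at 6 hr.

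Slfn2 was at 14.15, 14.12, 14.36 and 14.33 in the untreated WT libraries of mice 25, 69, 87 and 88. After 1 hr of LPS the same mice gave 15.60, 15.62, 15.83 and 15.81, and each mouse had risen by at least 1.45. This rise of 1.47 ± 0.07 (SE) was 2.78-fold (limma adjusted p = 6.62e-13) and was 1.41 ± 0.06 in Cpeb4-/- cells. At 1 hr no other member had a change above 0.31 in WT. From 1 to 3 hr Slfn2 rose further, by 0.46 ± 0.07 in WT (limma adjusted p = 9.92e-06) and by 0.47 ± 0.06 in Cpeb4-/- (2.96e-07). It peaked at 3 hr in 3 of 4 WT mice and 4 of 4 Cpeb4-/- mice, with WT values of 16.23, 16.13, 16.26 and 16.08. Between 3 and 6 hr it moved by -0.06 ± 0.07 in WT (adjusted p = 0.442), and the groups overlapped. In Cpeb4-/- cells the same step was -0.12 ± 0.06 (adjusted p = 0.0656), with groups that did not overlap, and it was called once the mouse was fitted as a replicate block (adjusted p = 0.0191). Under quantile normalization the step was called in both genotypes, at -0.28 in WT (0.000203) and -0.25 in Cpeb4-/- (0.00129). In WT the order of its times by level was 3, 6, 1, 9 and 0 hr, in which 3 and 6 hr overlapped, as did 1 and 9 hr. In Cpeb4-/- cells the order was the same and no neighbours overlapped.

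Slfn4, a member expressed in myeloid cells, had the largest rise of the 6. It was at 7.76, 7.82, 7.68 and 7.64 in the untreated WT libraries, and at 7.99, 7.92, 7.63 and 7.63 after 1 hr, where the groups overlapped (difference 0.07 ± 0.13, adjusted p = 0.726). At 3 hr the 4 libraries stood at 9.58, 9.51, 9.35 and 9.24, and at 6 hr at 12.87, 13.20, 12.51 and 12.89. The rise at 6 hr was 5.14 ± 0.13 over untreated cells, 35.3-fold (adjusted p = 1.33e-18), and most of it fell between 3 and 6 hr (3.44 ± 0.13). In Cpeb4-/- cells the rise at 6 hr was 5.12 ± 0.11, 34.9-fold.

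Slfn1, a short member, rose earlier than Slfn4 and to a lower height. Untreated WT libraries held 7.44 to 7.57 and the 1 hr libraries 7.24 to 7.40, which did not overlap, although this difference of -0.20 ± 0.08 was not called (adjusted p = 0.0712). At 3 hr the WT libraries stood at 10.31, 10.07, 10.15 and 9.86, and at 6 hr at 11.59, 11.75, 11.38 and 11.66. Its rise of 2.60 ± 0.08 at 3 hr was the highest value of the 6 members at that time in WT, and also in Cpeb4-/- (2.60 ± 0.09). The step from 1 to 3 hr was 2.80 ± 0.08 in WT and that from 3 to 6 hr 1.49 ± 0.08. The rise at 6 hr was 4.09 ± 0.08, 17.0-fold (adjusted p = 1.15e-19), and the corresponding value in Cpeb4-/- was 4.09 ± 0.09. All 8 mice had their highest Slfn1 value at 6 hr. Its groups at 6 and 9 hr overlapped in both genotypes.

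The long members Slfn5 and Slfn8 moved together. Over the 40 libraries their values had a Pearson r of 0.99, which is a description over libraries that share times and mice. Slfn5 rose in WT by 0.31 ± 0.05 at 1 hr (adjusted p = 5.43e-05), 2.04 ± 0.05 at 3 hr and 2.67 ± 0.05 at 6 hr, and Slfn8 by 0.24 ± 0.07 (adjusted p = 0.00837), 2.40 ± 0.07 and 2.81 ± 0.07. The 1 hr calls are small: after quantile normalization of the values the WT change at 1 hr was -0.0015 for Slfn5 and 0.0993 for Slfn8, and neither was called. The Slfn8 call in WT was also lost without mouse 25 or 69 (adjusted p = 0.0688 and 0.0813), and the Slfn5 call in Cpeb4-/- under quantile normalization (0.331). Both genes were highest at 6 hr in all 8 mice. The times ordered as 6, 3, 9, 1 and 0 hr in both genotypes and for both genes, and in WT no neighbours in that order overlapped. In Cpeb4-/- cells 3 and 9 hr overlapped for Slfn5, and 6 and 3 hr overlapped for Slfn8.

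Slfn9, the third long member here, was among the lowest of the 6 per length. Slfn4 lay below it in Cpeb4-/- at 0, 1 and 3 hr, and in WT at 3 hr (7.44 ± 0.15 against 7.49 ± 0.70, SD). Slfn9 was also the least even between mice. Its untreated WT libraries held 8.48, 8.39, 7.66 and 8.34, and its 3 hr libraries 9.68, 10.13, 9.42 and 11.02. At 6 hr they held 10.63, 10.75, 10.56 and 11.11. The rise at 6 hr was 2.54 ± 0.28, 5.83-fold (adjusted p = 4.95e-08), in WT and 2.06 ± 0.26 in Cpeb4-/-. At 1 hr WT was at -0.10 ± 0.28 and Cpeb4-/- at 0.56 ± 0.26 from untreated cells, and neither was called, although the Cpeb4-/- change was called with the mouse as a replicate block (adjusted p = 0.0189), under quantile normalization (0.0456) and without mouse 2 (0.021).

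Between 3 and 6 hr 5 of the 6 members rose in WT and 3 of the 6 in Cpeb4-/-, where 33.3% and 32.4% of all genes were called higher. Those called in Cpeb4-/- were Slfn1, Slfn4 and Slfn5. For Slfn8 the step was 0.42 ± 0.07 in WT (adjusted p = 2.03e-05) and 0.17 ± 0.08 in Cpeb4-/- (adjusted p = 0.0771). For Slfn9 it was 0.70 ± 0.28 in WT (adjusted p = 0.0346, with groups that overlapped) and -0.07 ± 0.26 in Cpeb4-/- (adjusted p = 0.83). These WT calls for Slfn8 and Slfn9 were lost under quantile normalization (adjusted p = 0.164 and 0.0655), and that for Slfn9 also without the filter on low values (0.0782) and without mouse 25, 69 or 87 (0.141, 0.089 and 0.095). The Slfn8 step in Cpeb4-/- was called without mouse 2 (0.21, adjusted p = 0.0236). The genotype difference in the 3 to 6 hr step was not tested.

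From 6 to 9 hr all 6 members fell in WT and 5 of the 6 in Cpeb4-/-, where 27.9% and 28.0% of all genes were called lower. Slfn9 fell by 1.55 ± 0.28, Slfn5 by 0.97 ± 0.05 and Slfn8 by 0.88 ± 0.07. Slfn2 fell by 0.49 ± 0.07, Slfn4 by 0.42 ± 0.13 and Slfn1 by 0.32 ± 0.08. Under quantile normalization 3 of the 6 WT falls were called, those of the 3 long members, and the Slfn4 fall was not called without mouse 25 (adjusted p = 0.0595). In Cpeb4-/- the fall of Slfn1 (0.22) was lost under quantile normalization (adjusted p = 0.34), without the filter (0.0677) and without any 1 of the 4 mice (0.0614 to 0.0903), and that of Slfn9 without mouse 55 (0.105).

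Expressed as the share of a mouse's own highest value that was left at 9 hr, on the linear scale, the WT mice kept 34.5% ± 4.22 (SD, n = 4) of Slfn9, 51.3% ± 1.97 of Slfn5 and 54.4% ± 2.38 of Slfn8. They kept 67.0% ± 7.64 of Slfn2, 75.1% ± 5.18 of Slfn4 and 80.4% ± 4.79 of Slfn1. The corresponding shares in Cpeb4-/- mice were 55.0% ± 19.2 of Slfn9, 63.9% ± 6.29 of Slfn5, 67.7% ± 11.01 of Slfn8, 62.1% ± 5.52 of Slfn2, 91.1% ± 11.6 of Slfn4 and 85.9% ± 3.97 of Slfn1. The long members thus stood lowest in WT at 9 hr relative to their own peak. Slfn4 reached its highest value at 6 hr in 4 of 4 WT mice, whereas in Cpeb4-/- 2 mice were highest at 6 hr and 2 at 9 hr.

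The step from 6 to 9 hr was then compared between genotypes, a contrast chosen after the values had been seen. Slfn5 in WT mice 25, 69, 87 and 88 went from 15.86, 15.97, 15.84 and 16.03 at 6 hr to 14.93, 15.02, 14.91 and 14.98 at 9 hr. In Cpeb4-/- mice 2, 3, 55 and 62 it went from 15.70, 15.80, 15.90 and 15.62 to 14.96, 15.26, 15.10 and 15.10. Every WT mouse fell by 0.93 to 1.05 and every Cpeb4-/- mouse by 0.52 to 0.81. These within-mouse falls did not overlap, which was also so for Slfn9, and the share of all genes with falls apart was not counted. For Slfn5 the Cpeb4-/- step minus the WT step was 0.31 ± 0.08 (limma adjusted p = 0.0341), and 0.0059 with the mouse as a replicate block. In this comparison 1.92% of all genes were called. The call was lost without the filter on low values (adjusted p = 0.058) and without mouse 3, 25, 62, 69, 87 or 88 (0.0606 to 0.234, with differences of 0.27 to 0.33).

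Slfn8 had a Cpeb4-/- step minus WT step of 0.30 ± 0.11 (adjusted p = 0.155), Slfn4 of 0.33 ± 0.17 (0.398) and Slfn9 of 0.80 ± 0.40 (0.364), and these were not called. For Slfn1 the value was 0.10 ± 0.12 and for Slfn2 -0.08 ± 0.09. The signs were the same for 5 of the 6 members, with Slfn2 as the exception. Within mice the Slfn9 steps did not overlap, at -1.79 to -1.36 in WT and -1.33 to -0.15 in Cpeb4-/-. The share of all genes with steps apart in this way was not counted. Libraries at 6 and 9 hr are shared by all 6 values, and the members lie in 1 cluster, so the 6 are not independent.

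**Figure D3:**
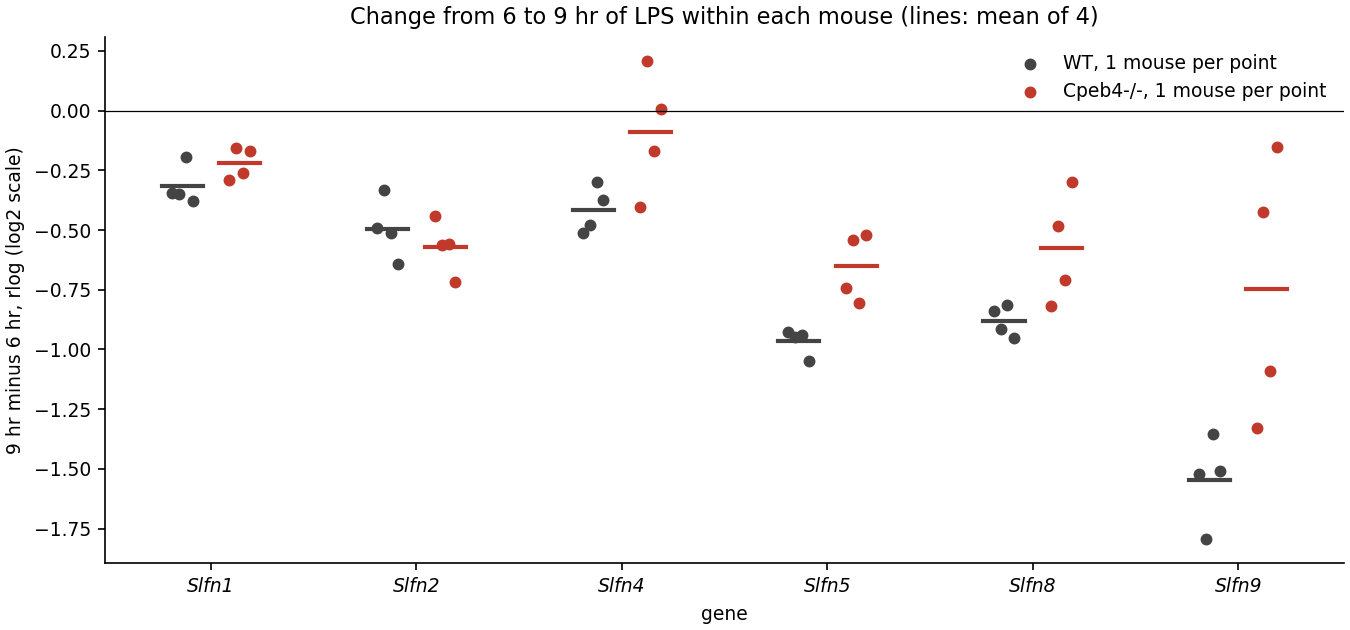
Change in expression from 6 to 9 hr of LPS (y axis, rlog, log2 scale) of the 6 members (x axis), with 1 point per mouse and a line at the mean of 4 mice, WT in grey and Cpeb4-/- in red. For Slfn5 the WT points lie at or below -0.93 and the Cpeb4-/- points at or above -0.81. For Slfn9 the WT points lie at or below -1.36 and the Cpeb4-/- points at or above -1.33. The difference between genotypes in this step was not called for Slfn9.

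WT and Cpeb4-/- cells were compared at each time to ask which members depend on genotype. No member was called at 0, 1 or 3 hr by limma, where 1.31%, 1.91% and 3.68% of all genes were called, while 1, 1 and 2 members had an unadjusted p under 0.05. At 6 hr 2 of the 6, Slfn2 and Slfn8, were lower in Cpeb4-/-, where 16.3% of all genes were called, 835 higher and 1294 lower (1025 and 995 under quantile normalization). At 9 hr 1 of the 6, Slfn2, was lower, where 7.91% of all genes were called. The differences were small: all 6 members lay below WT at 6 hr, by 0.08 to 0.39, and at 9 hr 1 of the 6 did. The 0.39 was that of Slfn9, which was not called. The median difference over all genes tested was -0.02 at 6 hr, and the share of all genes below WT was not counted. The 6 values come from the same libraries and are not independent.

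Slfn2 held the most even difference. At 6 hr its WT libraries stood at 16.06, 16.11, 16.09 and 16.19 and its Cpeb4-/- libraries at 15.93, 15.87, 15.92 and 15.91. All Cpeb4-/- libraries were below all WT libraries, which was the case for 1 of the 6 members and for 20.2% of all genes in either direction. The difference was -0.20 ± 0.05 (limma adjusted p = 0.0142), with -0.23 in batch 1 and -0.17 in batch 2.

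At 9 hr the WT libraries of Slfn2 held 15.57, 15.78, 15.58 and 15.54 and the Cpeb4-/- libraries 15.49, 15.31, 15.36 and 15.20. Again the groups did not overlap, as in 1 of the 6 members and 16.9% of all genes. The difference was -0.28 ± 0.08 (adjusted p = 0.0492), with -0.31 in batch 1 and -0.25 in batch 2. At 3 hr, with WT at 16.08 to 16.26 and Cpeb4-/- at 15.97 to 16.07, the groups were also apart, as in 2 of the 6 members and 13.6% of all genes, but the difference of -0.15 ± 0.06 was not called (adjusted p = 0.171). At 0 and 1 hr the differences were -0.09 ± 0.07 and -0.16 ± 0.07. The difference at 6 hr shrank to -0.05 under quantile normalization (adjusted p = 0.452). The 9 hr call was lost without trended variances (adjusted p = 0.0781), without the filter on low values (0.144) and without any 1 mouse other than mouse 2 (0.0677 to 0.14, with differences of -0.23 to -0.30).

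Slfn8 at 6 hr stood at 14.04, 14.21, 14.05 and 14.24 in WT and at 13.82, 13.95, 14.04 and 13.65 in Cpeb4-/-. The highest Cpeb4-/- library, of mouse 55, reached the level of the lowest WT library, of mouse 25. The difference was -0.27 ± 0.08 (limma adjusted p = 0.034), with -0.34 in batch 1 and -0.20 in batch 2. At the other 4 times it was between -0.02 and 0.13, and none of these was called. The call at 6 hr was lost under quantile normalization (-0.17, adjusted p = 0.0859), without trended variances (0.0917), without the filter (0.147) and without mouse 2, 62, 69 or 88 (0.0721 to 0.0932, with differences of -0.20 to -0.26).

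The other 4 members passed no genotype test with all libraries in the fit of 1 time, except Slfn5 at 9 hr under quantile normalization. Slfn5 was at -0.17 ± 0.07 at 6 hr (adjusted p = 0.115) and at 0.14 ± 0.07 at 9 hr (adjusted p = 0.189). Its 6 hr difference was called when all 40 libraries entered 1 fit with the mouse as a replicate block (adjusted p = 0.0344), and also when that fit had no block (0.0383). At 3 hr it was at -0.16 ± 0.06 (adjusted p = 0.131), and the highest Cpeb4-/- library (15.2311) lay just under the lowest WT library (15.2323). Slfn4 was at -0.18 ± 0.07 in untreated cells, where WT (7.64 to 7.82) and Cpeb4-/- (7.46 to 7.63) did not overlap (adjusted p = 0.21), as in 10.5% of all genes. Its differences at the later times lay between -0.20 and 0.13. Slfn1 was between -0.08 and 0.02 at every time, the narrowest range of the 6, with standard errors of 0.07 to 0.10. Slfn9 ranged from -0.39 ± 0.18 at 6 hr to 0.76 ± 0.26 at 1 hr (adjusted p = 0.158 and 0.0951), and its 1 hr difference was called in the fit of all 40 libraries with the replicate block (0.0344), a fit in which 4323 of 13103 genes were called at 1 hr. Several of these differences passed the test when 1 mouse was left out. Slfn9 did at 1 hr without mouse 69 (0.92, adjusted p = 0.0438), at 3 hr without mouse 88 (0.69, 0.0114), at 6 hr without mouse 55 (-0.55, 0.0297) and at 9 hr without mouse 2 (0.67, 0.00541). Over all genes the numbers called rose as well, to 2440 at 1 hr without mouse 69, 2584 at 3 hr without mouse 88 and 4575 at 9 hr without mouse 2. Slfn4 did at 6 hr without mouse 87 (-0.32, 0.0399). Slfn5 did at 6 hr without mouse 55 (-0.22, 0.0339) and at 9 hr without mouse 2 (0.19, 0.0231). With all mice, Slfn5 was called higher in Cpeb4-/- at 9 hr under quantile normalization (0.22, limma adjusted p = 0.0377).

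**Figure D4:**
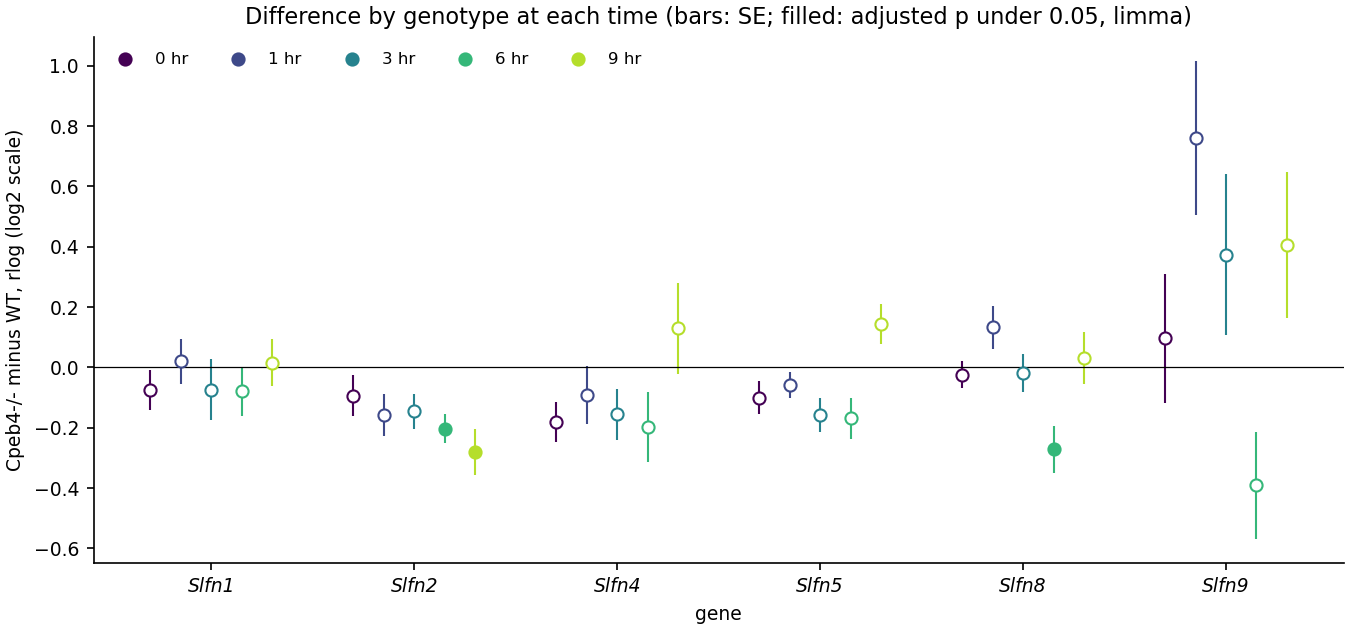
Cpeb4-/- minus WT (y axis, rlog, log2 scale) for the 6 members (x axis) at 0, 1, 3, 6 and 9 hr of LPS, colours from dark to light, with bars of 1 SE and filled points where the adjusted p of limma is under 0.05. Filled points are Slfn2 at 6 and 9 hr and Slfn8 at 6 hr, and the widest bars are those of Slfn9.

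The summed level of the macrophage markers differed between the genotypes at all 5 times, without overlap. Linear values were summed, so Lyz2 weighed most, with a mean rlog of 18.24 against 9.66 to 15.94 for the other markers. On a log2 scale WT held 18.98 to 19.29 and Cpeb4-/- 18.65 to 18.91 in untreated cells, 19.24 to 19.49 against 18.88 to 19.10 after 1 hr, and 19.28 to 19.32 against 18.81 to 18.995 after 3 hr. The sums were 19.24 to 19.32 against 18.92 to 19.14 after 6 hr, and 19.22 to 19.28 against 18.94 to 19.14 after 9 hr. Of the 8 markers 1, 1, 2, 4 and 3 were called lower in Cpeb4-/- at 0, 1, 3, 6 and 9 hr, and none higher. Their part in the Slfn2 and Slfn8 differences was not tested, and in whole cultures fewer cells of a type and less RNA per cell cannot be told apart.

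Whether the response from untreated cells differed by genotype was tested as an interaction for the 6 members at 4 times. None of the 24 values was called by limma, with 3 at an unadjusted p under 0.05 and a smallest adjusted p of 0.121. The values ranged from -0.49 to 0.66. The share of all genes called was 0.00763% for 1 hr, 0.206% for 3 hr, 2.94% for 6 hr (118 higher and 267 lower, or 102 and 125 under quantile normalization) and 1.76% for 9 hr. With the mouse as a replicate block 1 of the 24 was called, Slfn5 at 9 hr (0.24, adjusted p = 0.0325), which was also called under quantile normalization (0.36, adjusted p = 0.00456).

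Slfn9 differed from the other members in its spread. The standard deviation within groups, pooled over the 10 groups, was 0.43 for Slfn9, above that of 99.4% of genes tested, against 0.08 for Slfn5, 0.09 for Slfn2, 0.11 for Slfn8, 0.13 for Slfn1 and 0.18 for Slfn4. The median gene had 0.13. The deviations of Slfn9 from its group means were shared across the transcriptome. Their r with the first principal component of all deviations, which held 31.1% of their variance over 13103 genes, was 0.92 over the 40 libraries. For Slfn8 the r was 0.73 and for Slfn2 it was -0.81, while Slfn4 had 0.46, Slfn5 0.26 and Slfn1 -0.03. Cpeb4 itself had 0.98. The ends of this component were the WT library of mouse 88 at 3 hr, where Slfn9 was 11.02 against 9.42 to 10.13 in the other 3, and the Cpeb4-/- library of mouse 2 at 9 hr, where Slfn9 was 8.81 against 9.75 to 10.16. That Cpeb4-/- library was the lowest of its group for 5 of the 6 members and the highest for Slfn2. These r values describe libraries that share mice and times, and what the component measures was not tested.

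**Figure D5:**
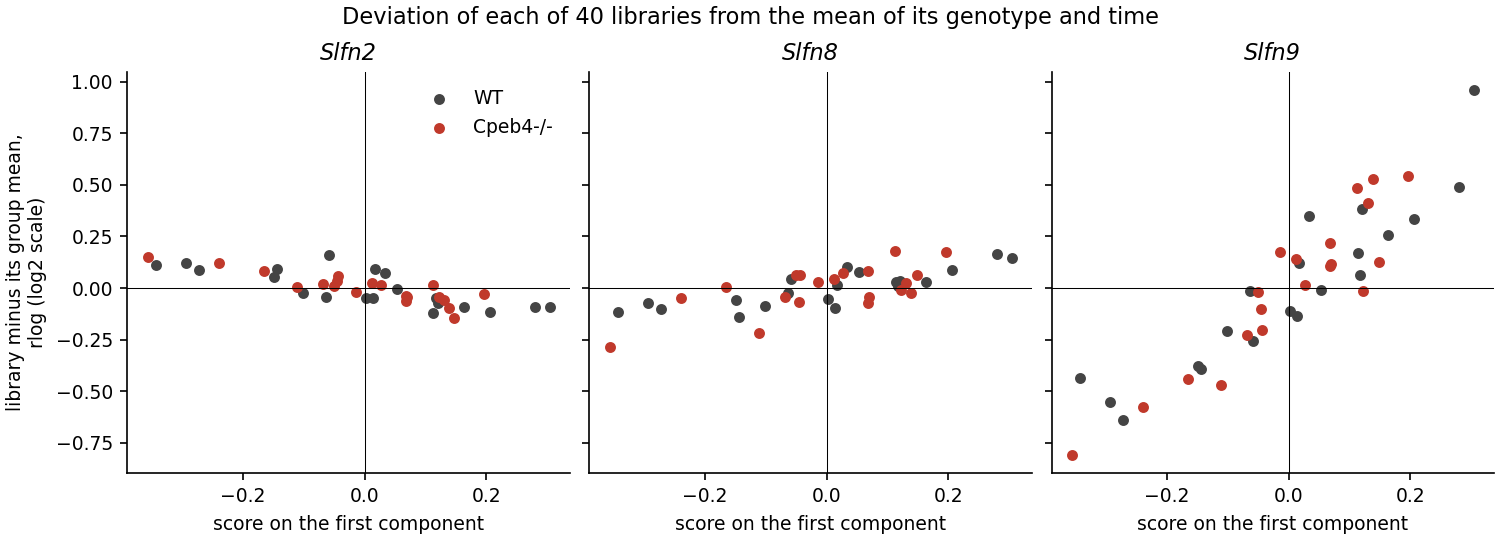
Deviation of each of 40 libraries from the mean of its genotype and time (y axis, rlog, log2 scale) for Slfn2, Slfn8 and Slfn9, against the score of the library on the first principal component of the deviations of all genes tested (x axis, no unit), WT in grey and Cpeb4-/- in red. Slfn9 rises along the component (r = 0.92), Slfn8 rises less steeply (r = 0.73) and Slfn2 falls (r = -0.81).

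Single mice also stood apart at all times. Slfn4 was above its group mean at all 5 times in WT mouse 69 (mean 0.18) and below it at all 5 in WT mouse 87 (-0.17). Slfn9 was above it at all 5 times in Cpeb4-/- mouse 3 (0.36) and below it at all 5 in WT mouse 87 (-0.37). Slfn1 was above it at all 5 times in Cpeb4-/- mouse 55 (0.12) and below it at all 5 in Cpeb4-/- mouse 62 (-0.10). Deviations of Slfn1 and Slfn4 had an r of 0.73 over the 40 libraries, those of Slfn8 and Slfn9 of 0.77, and those of Slfn2 and Slfn9 of -0.71.

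The genes of most similar pattern were found by Pearson r over the 40 libraries among 6040 genes whose group means ranged over at least 1. For Slfn2 they were Bcl2a1b, Traf1 and Marcksl1 (r = 0.99, 0.98 and 0.98), of which Bcl2a1b encodes an inhibitor of apoptosis and Traf1 an adaptor of TNF receptors. For Slfn1 they were Cp, Hdc and Dtx2 (r = 0.997, 0.996 and 0.995), of which Cp encodes ceruloplasmin and Hdc the enzyme that makes histamine. For Slfn4 they were Ms4a6d, Agtrap and Ms4a4c (r = 0.99 each).

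For Slfn5 the most similar genes were Parp9, Mndal and Gbp7 (r = 0.995, 0.995 and 0.994), and for Slfn8 they were Parp9, Sbno2 and Jak2 (r = 0.99 each). Parp9, Mndal and Gbp7 are known interferon-responsive genes, and Jak2 is a kinase of cytokine receptors. For Slfn9 they were Atp11a, Pcgf3 and Cep350 (r = 0.98 each). Slfn2 had 119 genes with an r of at least 0.9, against 728 for Slfn1 and for Slfn8 and 817 for Slfn5, so fewer genes followed its time course. Among the members themselves r ran from 0.48 (Slfn2 and Slfn4) to 0.99 (Slfn5 and Slfn8).

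The pathway that drives interferon targets was described from lists written for this purpose, with earlier results of these data known. The alternatives of processing were not applied to these lists. Of 30 interferon-stimulated genes all 30 were higher at 6 hr in WT, with a median change of 3.29, and all 30 in Cpeb4-/-, with a median of 3.17, against -0.02 for all genes tested in each. At 6 hr 23 of the 30 were lower in Cpeb4-/- and none was higher, with a median difference of -0.24 against -0.02 for all genes. The median was already -0.18 in untreated cells, where none was called, -0.14 at 1 hr, with 2 lower, and -0.24 at 3 hr, with 6 lower. The 6 members had a median difference of -0.20 at 6 hr, and of -0.08, -0.02, -0.11 and 0.08 at 0, 1, 3 and 9 hr. The interferon-stimulated genes with the largest differences at 6 hr were Cmpk2 (-0.61 ± 0.10, adjusted p = 0.00249), Ifi44 (-0.60 ± 0.09, 0.00127) and Rsad2 (-0.60 ± 0.10, 0.00301). Cmpk2 encodes a mitochondrial nucleotide kinase and Rsad2 the antiviral protein viperin. At 9 hr 4 of the 30 were lower, with a median of -0.09. Of all genes tested, 1.31%, 1.91%, 3.68%, 16.3% and 7.91% were called in either direction at 0, 1, 3, 6 and 9 hr.

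Of 17 tested genes for interferon ligands, receptors and signalling, 5 were lower and 1 higher in Cpeb4-/- at 6 hr, where 16.3% of all genes were called. Ifnb1, the interferon gene induced early by LPS, had a mean of 8.34 in WT against 7.63 in Cpeb4-/- after 1 hr (-0.71 ± 0.25, adjusted p = 0.0965) and was lower in Cpeb4-/- at 3 hr (-0.66 ± 0.13, adjusted p = 0.0306). At 6 hr Stat2 (-0.20 ± 0.06, adjusted p = 0.0447), Irf9 (-0.14 ± 0.04, 0.023) and Irf7 (-0.22 ± 0.05, 0.0155) were lower in Cpeb4-/-. Tyk2, the kinase of the interferon receptor, was lower by 0.41 ± 0.06 (0.00144), and Usp18, a negative regulator of that receptor, by 0.45 ± 0.06 (0.000595).

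The 3′-UTRs were examined because AU-rich elements and CPEs are the elements that the study is about. In the longest annotated 3′-UTR of each gene (GENCODE transcripts of mouse), Slfn5 held 9 AUUUA pentamers in 3136 bases, Slfn9 5 in 2786, Slfn8 4 in 1706 and Slfn4 3 in 922. Slfn1, with 597 bases, and Slfn2, with 345 bases, held 0. The median of 11966 tested genes was 2 in 1149 bases. The 9 of Slfn5 exceed the count in 91.5% of these genes. CPEs, counted as UUUUAU or UUUUAAU, numbered 4 in Slfn4, 2 in Slfn5, 1 in Slfn9 and 0 in Slfn1, Slfn2 and Slfn8, against a median of 1. The ARE:CPE score of the study counted further motifs, such as UUUUGU. Those were not searched here, so a count of 0 covers these 2 motifs only. Of these pentamers 3 are shown as DNA, with the pentamer in capitals and up to 12 bases on each side, 1 from each long member; those of Slfn8 and Slfn9 lie in like surroundings.
Slfn5, chr11:82962268-82962296, plus strand: tctacatgacttATTTAttcagaatcttt
Slfn8, chr11:83002734-83002762, minus strand: attgttgaaaacATTTAtgaaaatattgt
Slfn9, chr11:82980832-82980860, minus strand: attggttaatacATTTAtgaaaatattgt
The UTRs differ in length, and per kb Slfn4 held the most pentamers (3.25), followed by Slfn5 (2.87), Slfn8 (2.35) and Slfn9 (1.80). In the WT falls from 6 to 9 hr Slfn9 fell the most and Slfn4 less than any long member. Any part of the pentamers in these falls was not tested, and mRNA stability was not measured here.

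The remaining Schlafen rows were described by level. Slfn3, which follows Slfn4 on the chromosome, rose in WT by 2.15 ± 0.13 at 6 hr and the pseudogene Slfn10-ps by 1.14 ± 0.10 (adjusted p = 2.38e-12 and 1.03e-09), and neither passed a genotype test at any time. Slfn14 lay between -0.17 and 0.98, Slfnl1 between -0.65 and 0.41 and Slfn5os between -2.34 and -2.27 in all 40 libraries, below the filter of log2 of 5. Of the genes beside the cluster, Rffl rose in WT by 2.10 ± 0.09 at 6 hr and was higher in Cpeb4-/- at 6 hr by 0.33 ± 0.04 (adjusted p = 0.00067). Rad51d fell by 0.61 ± 0.06 in WT at 6 hr, and AI662270, a row inside the cluster, rose by 0.46 ± 0.11. Nle1, AA465934 and AI450353 passed neither the WT test at 6 hr nor a genotype test at any time.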

How the data were processed

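Poly(A) RNA-seq was made by the authors from the BMDMs of 8 mice at 5 times (40 libraries). According to the labels, methods and alignment statistics of the study, libraries were amplified for 8 cycles, sequenced as 50-base reads, aligned with STAR 2.3.0e to mm10 and counted per gene with featureCounts. The authors deposited values after the regularized log transformation of DESeq2, on a log2 scale, corrected for library size and shrunken at low counts. The table holds no counts, so the depth of a library is unknown from it, and 0 value columns were left unused.

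Groups were taken from the labels. Differences were fitted with limma 3.58.1 (eBayes with trend) in R 4.3.3 over the genes whose mean rlog reached log2 of 5 among the libraries fitted, with Benjamini-Hochberg adjustment over all genes tested and a threshold of 0.05. Genotypes were compared per time (8 libraries), times within a genotype (20 libraries) and interactions over 40 libraries. No block was used in these fits. Each mouse gave all 5 times, and libraries of a mouse at different times deviated together (median r = 0.29, 68 of 80 pairs over 0.1). The mouse as a replicate block is therefore given where it changed a call. Between mice the median r was -0.09. Deviations from means of 4 libraries push that value below 0 when same-mouse values lie above 0, so it is no independent comparison. The fits were checked on simulated data. Alternatives were the filter, the variance model, quantile normalization, the batch, the block and the removal of each mouse.

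Besides the 6 members, the genes named were the other Slfn rows, Cpeb4, the 3 most similar genes per member, 3 neighbours on each side, named interferon genes and the 3 largest called differences at 6 hr per list; 2 genes of this rule are not reported here. The neighbours include AI662270 inside the cluster, chosen after its values were seen. Members and lists were chosen with earlier results of these data known. Promoters came from RefSeq (GRCm38.p6), and exon lengths, 3′-UTRs and 50-base windows from GENCODE. Python 3.11.15 was used for the tables. Gene positions are those of GRCm38, the assembly called mm10.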

Additional observations from a re-analysis of the deposited data

Results flagged for a closer look

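In groups of 4 libraries, 3 of 60 groups held a library whose gap to the nearest other exceeded the 95% limit of Dixon's test, and chance flags about 1 in 20 groups. Slfn2 in WT at 9 hr was at 15.78 in mouse 69 and at 15.54 to 15.58 in the other 3, and without that mouse the Cpeb4-/- minus WT difference at 9 hr was -0.23 (limma adjusted p = 0.123). Slfn8 in untreated WT was at 11.25 in mouse 87 and at 11.34 to 11.35 in the others. Slfn9 in untreated WT was at 7.66 in mouse 87 and at 8.34 to 8.48 in the others, and without that mouse its untreated difference moved from 0.10 to -0.09, neither of which was called.

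Slfn5 was flagged because its change from 6 to 9 hr differed between genotypes in a test of the difference itself, by 0.31 (limma adjusted p = 0.0341). The contrast was chosen after the values were seen. The fall was smaller in 4 of 4 Cpeb4-/- mice than in any WT mouse. This was also so for Slfn9, whose difference was not called, and the share of all genes with falls apart was not counted.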

How the results depend on the processing

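Of 1418 values of single members under an alternative, 1333 kept their direction and their side of the threshold, 45 lost a call, 21 gained one and 19 changed sign. All 6 members were called higher at 3, 6 and 9 hr than in untreated cells under each alternative, in both genotypes. The number of members called between genotypes at 1 hr was 0 and became 1 in the fits of all 40 libraries with and without the replicate block. At 6 hr it was 2 and became 3 in both fits of all 40 libraries, 1 without trended variances, 1 without the filter and 0 under quantile normalization. At 9 hr it was 1 and became 0 without trended variances, 0 without the filter and 2 under quantile normalization. Quantile normalization also gave 1 member in place of 3 for WT at 1 hr, 3 in place of 6 for the WT fall from 6 to 9 hr, and 1 in place of 0 for the interaction at 9 hr, where the replicate block gave 1 as well. For the 6 to 9 hr interaction 1 became 0 without the filter. Without each mouse in turn the numbers were 0 to 1 at 1 hr and 3 hr, 1 to 4 at 6 hr and 0 to 3 at 9 hr between genotypes, 3 to 4 for the Cpeb4-/- fall from 6 to 9 hr and 0 to 1 for the 6 to 9 hr interaction. The cause of these changes was not tested. The first similar gene was the same over the 10 group means for 4 of 6 members.

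Sign changes concerned small differences. Under quantile normalization these were Slfn1 at 1 hr (-0.0147) and Slfn8 at 3 hr (0.0446) between genotypes, Slfn5 in WT at 1 hr (-0.0015), Slfn8 in Cpeb4-/- from 3 to 6 hr (-0.0976) and Slfn4 in Cpeb4-/- from 6 to 9 hr (0.106). Without 1 mouse, differences between genotypes ran from -0.0879 to 0.2427 for untreated Slfn9, -0.0127 to 0.0643 for Slfn1 at 1 hr, -0.0527 to 0.03 for Slfn8 at 3 hr, -0.0347 to 0.0763 for Slfn1 at 9 hr and -0.0288 to 0.1244 for Slfn8 at 9 hr. Within a genotype they ran from -0.2108 to 0.0672 for Slfn9 in WT at 1 hr, from -0.235 to 0.0549 for Slfn9 in Cpeb4-/- from 3 to 6 hr and from -0.1887 to 0.0161 for Slfn4 in Cpeb4-/- from 6 to 9 hr.

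Over all genes, the fit of 40 libraries with the replicate block called 4323 genes between genotypes at 1 hr, against 251 in the fit of that time alone, and 414, 1393 and 2378 against 171, 481 and 1029 at 0, 3 and 9 hr. Without the block that fit called 326, 4182, 1311 and 2280 at 0, 1, 3 and 9 hr. Without the filter the numbers were 50, 53, 167, 1288 and 582 at 0, 1, 3, 6 and 9 hr, and with the batch as a covariate 146, 194 and 1781 at 1, 3 and 9 hr, and 230 at 3 hr without trended variances. Without 1 mouse they were 44 to 163, 40 to 2440, 76 to 2584, 1347 to 2331 and 387 to 4575 at 0, 1, 3, 6 and 9 hr, with the highest at 1, 3 and 9 hr reached without mouse 69, 88 and 2. The interaction at 1 hr had 1 call, 0 at a mean rlog of at least 5 and 8 without the filter. The block raised the interaction counts from 27, 385, 231 and 252 to 72, 1032, 654 and 737 at 3, 6 and 9 hr and for 6 to 9 hr. Quantile normalization changed the interaction at 6 hr from 385 to 227 and that of 6 to 9 hr from 252 to 158. The replicate block changed no call of a member other than those given with the results. The shrinkage of low counts and the unknown depth limit what can be said of Slfn9, Slfn14 and Slfnl1.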

Other observations

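Schlafen proteins are studied as tRNA-cleaving and tRNA-guarding proteins, so the genes of tRNA maturation and cleavage were followed beside them. Of 12 listed genes 11 were tested. In WT at 6 hr 4 were higher and 6 lower than in untreated cells, with a median change of -0.24, and in Cpeb4-/- 4 were higher and 5 lower, with a median of -0.13. Of all genes tested, 38.7% in WT and 39.0% in Cpeb4-/- were called higher then. Between genotypes 1 of the 11 was called at 1, 3, 6 and 9 hr each, where 1.91%, 3.68%, 16.3% and 7.91% of all genes were called. At all 4 times it was Ang, which encodes angiogenin, a ribonuclease that cleaves tRNAs under stress. Ang was lower in Cpeb4-/-, at -0.87 ± 0.18 at 1 hr (limma adjusted p = 0.0442) and -0.58 ± 0.13 at 3 hr (0.039). The later differences were -0.44 ± 0.10 at 6 hr (0.00923) and -0.48 ± 0.12 at 9 hr (0.0427), and the untreated difference of -0.61 ± 0.15 was not called (0.0798). Its WT level fell by 0.92 ± 0.10 from untreated to 6 hr, while all 6 Schlafen genes rose.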
